A study of Mus musculus with 18 samples.

Results

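The genes described here are 10 brakes of the cell cycle and targets of p53, read on 18 Affymetrix arrays of mouse embryonic stem cells (ESCs). They are the CDK inhibitors Cdkn1a, Cdkn1b, Cdkn1c, Cdkn2a and Cdkn2b, and the p53-linked genes Mdm2, Plk2, Btg2, Pmaip1 and Ccng1. Members were taken by gene symbol: 18 of the 34945 probe sets that name 1 gene carry one of these symbols, and the members are 10 of the 18193 genes with a probe set. Each gene is read by the probe set with its highest mean over the 18 arrays, and the levels are RMA values on the log2 scale, so a difference of 1 is a 2-fold change. Precision is limited by how many arrays were run, since array values rest on no counts.

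All samples were male 129SV EBRTcH3 ESCs or derivatives of them, with 1 array each. Lines labelled as overexpressing c-Myc T58A, and lines labelled as overexpressing wild-type c-Myc, had 1 sample at day 2 and 1 at day 5 of LY294002, an inhibitor of PI3K, and 1 untreated sample. Parental ESCs in serum with LIF had 1 sample at day 2 and 2 at day 5 of LY294002, and 2 untreated samples. The 2i medium, which blocks MEK and GSK3, was used for parental ESCs with 1 sample at day 5 of LY294002 and 1 untreated sample. Max-null ESCs labelled as overexpressing p110 alpha (a catalytic PI3K protein) had 1 sample with doxycycline (Dox), whose day is not given, and 1 untreated sample. Plain Max-null ESCs had 1 untreated sample, 1 at day 4 and 1 at day 6 of Dox. Per the series design, Dox ablates Max expression, and the growth conditions of all but the 2i samples were serum with LIF. For the treated T58A samples the construct is given as N-Myc in 1 label, the description of their untreated sample, and as c-Myc T58A in the rest. The labels do not say whether a derived line is 1 clone.

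The 4 arrays of parental replicate 1 and of the 2i ESCs had median log2 levels of 5.03 to 5.05 and 10 written digits, and the other 14 arrays medians of 5.31 to 5.52 and 7 digits. Levels were therefore not set against each other across these array groups, whose origin the labels do not state. Exceptions were the alternative day 5 fits without the block by pair, and the probe set choice and level filter, which used all 18 arrays. The Max-null array of Dox day 6 stood apart with the highest median, 5.52, and the smallest spread, an SD of 2.36 against 2.48 to 2.57 on the other 17. Max, which c-Myc needs as its dimer partner, read 6.33 to 7.18 in both Max-null lines (5 samples) and 8.21 to 8.71 in the other 9 samples of that array group. Its probe set read 6.33 with Dox and 6.70 without in the p110 alpha line, and 7.09, 6.89 and 7.18 at days 0, 4 and 6 in plain Max-null ESCs, so it did not show the ablation by Dox. Myc read 6.99 in the untreated T58A line and 7.51 in the untreated wild-type c-Myc line, against 7.43 in untreated parental replicate 2. Pik3ca, the gene of p110 alpha, read 8.82 in the untreated p110 alpha line and 8.50 in untreated Max-null ESCs. Whether these probe sets lie in the introduced or deleted parts is not given here, so they neither bear out nor contradict the labels, and the lines carry the names of their labels below. All 12 markers of naive and core ESCs lay above the level filter on all 18 arrays, and their changes with treatment are given beside the results.

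CDK inhibitors bind cyclin-dependent kinases and hold the cell in G1. The Cip/Kip proteins p21 (Cdkn1a), p27 (Cdkn1b) and p57 (Cdkn1c) act on several cyclin-CDK pairs, and the INK4 proteins p16 (Cdkn2a) and p15 (Cdkn2b) act on CDK4 and CDK6. The p53 protein is a transcription factor that turns on Cdkn1a, the ubiquitin ligase gene Mdm2 that ends its own activity, and genes of growth control and cell death. Mouse ESCs cycle fast with a short G1, and PI3K signalling through Akt is known to act on p27 and Mdm2 at the protein level, which an RNA array does not read.

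The promoters of the 5 members that fell with LY294002 are printed here, with and without a match to the p53 motif, as 250 bases before the gene start from RefSeq on GRCm38.p6. Capitals mark matches to the p53 consensus half-site, searched on both strands. Cdkn1a is shown at chr17:29090729-29090978 on the plus strand, Mdm2 at chr10:117710759-117711008 on the minus strand, and Ccng1 at chr11:40755287-40755536 on the minus strand. Plk2 is shown at chr13:110394794-110395043 on the plus strand and Btg2 at chr1:134079156-134079405 on the minus strand, both with no match.
Cdkn1a: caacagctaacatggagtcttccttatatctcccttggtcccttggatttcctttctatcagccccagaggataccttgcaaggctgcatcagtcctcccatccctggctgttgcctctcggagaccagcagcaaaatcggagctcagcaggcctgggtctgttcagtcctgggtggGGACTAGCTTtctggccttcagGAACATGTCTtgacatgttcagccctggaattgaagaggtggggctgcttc
Mdm2: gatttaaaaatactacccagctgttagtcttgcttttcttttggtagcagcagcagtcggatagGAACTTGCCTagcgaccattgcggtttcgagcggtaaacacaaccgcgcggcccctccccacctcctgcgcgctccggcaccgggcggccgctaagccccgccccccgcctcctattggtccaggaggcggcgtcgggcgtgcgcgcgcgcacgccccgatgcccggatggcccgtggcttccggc
Ccng1: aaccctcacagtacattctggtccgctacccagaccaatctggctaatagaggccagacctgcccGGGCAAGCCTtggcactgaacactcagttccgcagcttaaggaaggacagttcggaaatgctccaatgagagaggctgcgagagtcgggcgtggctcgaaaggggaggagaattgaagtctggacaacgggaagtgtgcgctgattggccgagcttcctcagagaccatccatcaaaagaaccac
Plk2: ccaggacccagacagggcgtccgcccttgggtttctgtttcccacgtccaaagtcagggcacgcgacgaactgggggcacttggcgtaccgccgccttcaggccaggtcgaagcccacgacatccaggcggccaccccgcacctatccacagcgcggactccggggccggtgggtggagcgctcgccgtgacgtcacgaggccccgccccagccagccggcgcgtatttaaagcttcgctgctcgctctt
Btg2: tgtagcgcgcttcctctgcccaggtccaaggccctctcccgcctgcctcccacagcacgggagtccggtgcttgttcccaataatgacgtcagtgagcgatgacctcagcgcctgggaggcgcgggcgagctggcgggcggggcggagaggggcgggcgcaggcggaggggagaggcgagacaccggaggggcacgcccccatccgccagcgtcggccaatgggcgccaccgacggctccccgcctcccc

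The table held windows from 250 bases before to 50 after the start for 8 of the 10 members, 10 windows in all, with a second start each for Cdkn1a and Cdkn2a. Half-site matches stood in 3 of the 10 member windows, those printed for Cdkn1a, Mdm2 and Ccng1, and in 8.36% of all 32851 windows of the same length. The window of the second Cdkn1a start, at chr17:29093519-29093818, had no match. In the printed Cdkn1a window the matches covered bases -73 to -64 and -51 to -42 before that start. They covered bases -186 to -177 in the Mdm2 window and bases -185 to -176 in the Ccng1 window. The E-box CACGTG, the site that Myc and Max bind together, stood in 0 of the 10 member windows and in 7.15% of all windows. The FOXO motif GTAAACA stood in the Mdm2 window alone of the 10, at bases -153 to -147, and in 3.65% of all windows. A match describes the letters only, and these windows say nothing on sites farther away.

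**Figure D1:**
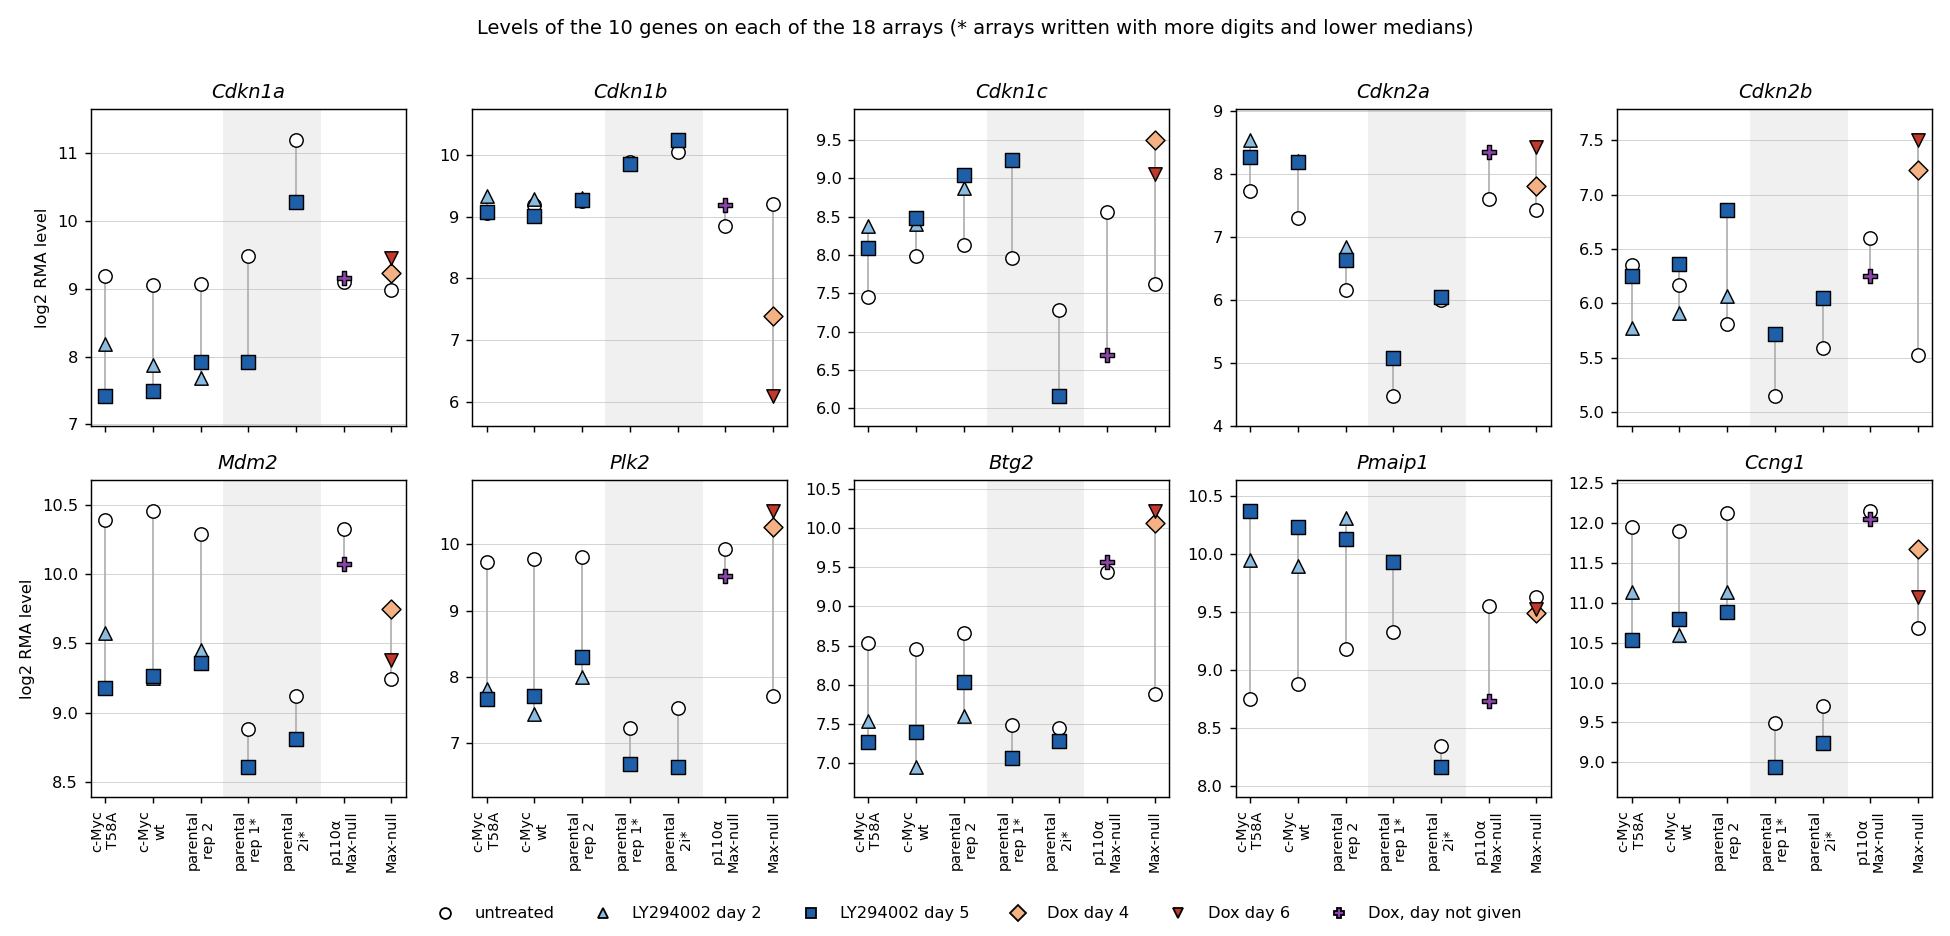
Log2 RMA level (vertical axis, scaled per gene) of each of the 10 genes on the 18 arrays, by line, with marker shape for the treatment and day and a grey line for the range within a line; the shaded columns are the 4 arrays with lower medians, whose levels are not comparable with the rest. Cdkn1a, Mdm2, Plk2, Btg2 and Ccng1 lie below the untreated sample with LY294002 in each serum line, and Cdkn1b is far below it with Dox in plain Max-null ESCs.

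With LY294002 in serum, Cdkn1a, Mdm2, Ccng1, Plk2 and Btg2 fell at both days, and Pmaip1, Cdkn1c and Cdkn2a rose. At day 2 Plk2 was 4.04-fold lower, Cdkn1a 2.28-fold lower and Pmaip1 2.16-fold higher over the 3 lines T58A c-Myc, wild-type c-Myc and parental replicate 2. Thus 3 members rose, 5 fell and 2 did not pass at day 2, and the counts were the same at day 5. Of all 13420 genes tested, 30.5% passed at day 2, with 18.3% higher and 12.3% lower, and 44.1% at day 5, with 25.7% higher and 18.5% lower. The median change of the 10 members was -0.57 at day 2, beside 0.04 over all genes. The test was limma across all genes with the line as a block, on 9 samples with 4 residual degrees of freedom, and passing means a Benjamini-Hochberg adjusted p at or under 0.05. These are bulk RNA samples, in which fewer cells of a type and less RNA per cell cannot be told apart.

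Cdkn1a (chr17:29090979-29100722), the gene of p21 and the best known p53 target, read 9.19, 8.18 and 7.42 at days 0, 2 and 5 in the T58A line and 9.05, 7.87 and 7.50 in the wild-type c-Myc line. In parental replicate 2 it read 9.06, 7.68 and 7.92 at the same days. Every treated sample thus lay below every untreated one of these lines. The fitted change was -1.19 ± 0.16 at day 2 and -1.49 ± 0.16 at day 5 (SE, n = 3 lines; limma adjusted p = 0.00225 and 0.000464). Its second probe set gave -1.23 and -1.54.

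Cdkn1b (chr6:134920401-134925525), the gene of p27, did not pass at either day, with 9.01 to 9.34 in the 6 treated samples and 9.06 to 9.25 in the 3 untreated ones. Its fitted changes were 0.14 ± 0.08 at day 2 and -0.05 ± 0.08 at day 5 (SE, n = 3 lines), with limma adjusted p of 0.244 and 0.667. The untreated values lay within the range of the treated ones.

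Cdkn1c (chr7:143458339-143461059), the imprinted gene of p57, read 7.45, 8.38 and 8.10 at days 0, 2 and 5 in the T58A line and 7.99, 8.40 and 8.48 in the wild-type c-Myc line. Parental replicate 2 gave 8.13, 8.87 and 9.04 at these days. Each line was higher when treated, but the groups overlapped, since the treated T58A sample of day 5 lay under the untreated parental one. The rise was 0.70 ± 0.12 at day 2 and 0.68 ± 0.12 at day 5 (SE, n = 3 lines; limma adjusted p = 0.00518 and 0.00317). It rests on the comparison within lines: without the line block the adjusted p were 0.0878 and 0.0669.

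Cdkn2a (chr4:89274473-89294619) codes for p16 and, in another reading frame, for ARF, an inhibitor of Mdm2, and which transcript the probe set reads is not given here. In the T58A line it read 7.73, 8.54 and 8.26 at days 0, 2 and 5, in the wild-type c-Myc line 7.30, 8.20 and 8.19, and in parental replicate 2 it read 6.16, 6.84 and 6.63. Both lines labelled c-Myc thus lay above parental replicate 2 at each day, a difference between single lines that was not tested. The rise with LY294002 was 0.80 ± 0.10 at day 2 and 0.63 ± 0.10 at day 5 (SE, n = 3 lines; limma adjusted p = 0.00136 and 0.00166). Without the line block the adjusted p were 0.374 and 0.440.

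Cdkn2b (chr4:89306289-89311032), the gene of p15 and a neighbour of Cdkn2a, had unlike changes in the lines, each read on 1 array a day. Over both parental pairs its c-Myc minus parental difference at day 5, -0.76 ± 0.24 (SE), did not pass (limma adjusted p = 0.996). At day 5 its change from the untreated sample was -0.10 in the T58A line and 0.19 in the wild-type c-Myc line, against 1.05 in parental replicate 2. Over the 3 lines it gave -0.19 ± 0.19 at day 2 and 0.38 ± 0.19 at day 5 (SE; limma adjusted p = 0.497 and 0.153). Without parental replicate 2 it passed at day 2, with -0.42 and an adjusted p of 0.0431, beside 22% of all genes.

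Mdm2 (chr10:117688875-117710758), the ubiquitin ligase gene of the p53 feedback loop, read 10.39, 9.57 and 9.18 at days 0, 2 and 5 in the T58A line. It read 10.46, 9.25 and 9.26 in the wild-type c-Myc line and 10.29, 9.45 and 9.36 in parental replicate 2. The treated samples did not overlap the untreated ones. Its fall was -0.95 ± 0.11 at day 2 and -1.11 ± 0.11 at day 5 (SE, n = 3 lines; limma adjusted p = 0.00106 and 0.000286). A second probe set gave -1.17 and -1.29, and the remaining one had too low a level to be tested.

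Ccng1 (chr11:40748552-40755309), the p53 target gene of cyclin G1, read 11.95, 11.14 and 10.53 at days 0, 2 and 5 in the T58A line. The wild-type c-Myc line gave 11.90, 10.60 and 10.80, and parental replicate 2 gave 12.13, 11.14 and 10.88. Here too the treated and untreated samples stood apart. Ccng1 fell by 1.04 ± 0.14 at day 2 and by 1.26 ± 0.14 at day 5 on the log2 scale (SE, n = 3 lines; limma adjusted p = 0.00195 and 0.000452). A second probe set gave -1.07 and -1.29. The remaining one did not pass, with -0.29 at day 2 (limma adjusted p = 0.211) and -0.12 at day 5 (limma adjusted p = 0.590), so the fall of Ccng1 holds for 2 of its 3 probe sets.

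Plk2 (chr13:110395044-110400844), a polo-like kinase gene induced by p53 and by serum, read 9.73, 7.82 and 7.68 at days 0, 2 and 5 in the T58A line. It read 9.78, 7.45 and 7.71 in the wild-type c-Myc line and 9.80, 8.00 and 8.30 in parental replicate 2. The untreated samples lay close together, and all treated samples were far below them. Its fall, -2.02 ± 0.14 at day 2 and -1.88 ± 0.14 at day 5 (SE, n = 3 lines; limma adjusted p = 0.000396 and 0.00014), was the largest of the 10 members at both days by the probe set used. Its other probe set lay above the level filter on 1 of 18 arrays, and with the mean of both Plk2 gave -1.02 and -1.05, less than Cdkn1a at -1.21 and -1.52. By p-value it ranked 27 of 13420 genes at day 2 and 129 at day 5.

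Btg2 (chr1:134074865-134079155), an antiproliferative gene and p53 target, read 8.53, 7.54 and 7.28 at days 0, 2 and 5 in the T58A line. The values were 8.46, 6.96 and 7.39 in the wild-type c-Myc line and 8.66, 7.60 and 8.03 in parental replicate 2. All 6 treated samples lay below the 3 untreated ones. The fall was -1.18 ± 0.16 at day 2 and -0.98 ± 0.16 at day 5 (SE, n = 3 lines; limma adjusted p = 0.0019 and 0.00207). The second probe set gave -0.85 and -0.70.

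Pmaip1 (chr18:66458604-66465558) codes for Noxa, a BH3-only protein that promotes apoptosis, and is induced by p53 and by other stress factors. It moved against the other p53-linked members: 8.75, 9.95 and 10.37 at days 0, 2 and 5 in the T58A line, 8.88, 9.90 and 10.23 in the wild-type c-Myc line, and 9.18, 10.31 and 10.13 in parental replicate 2. The 6 treated samples lay above the 3 untreated ones. The rise was 1.11 ± 0.13 at day 2 and 1.31 ± 0.13 at day 5 (SE, n = 3 lines; limma adjusted p = 0.00135 and 0.000358).

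**Figure D2:**
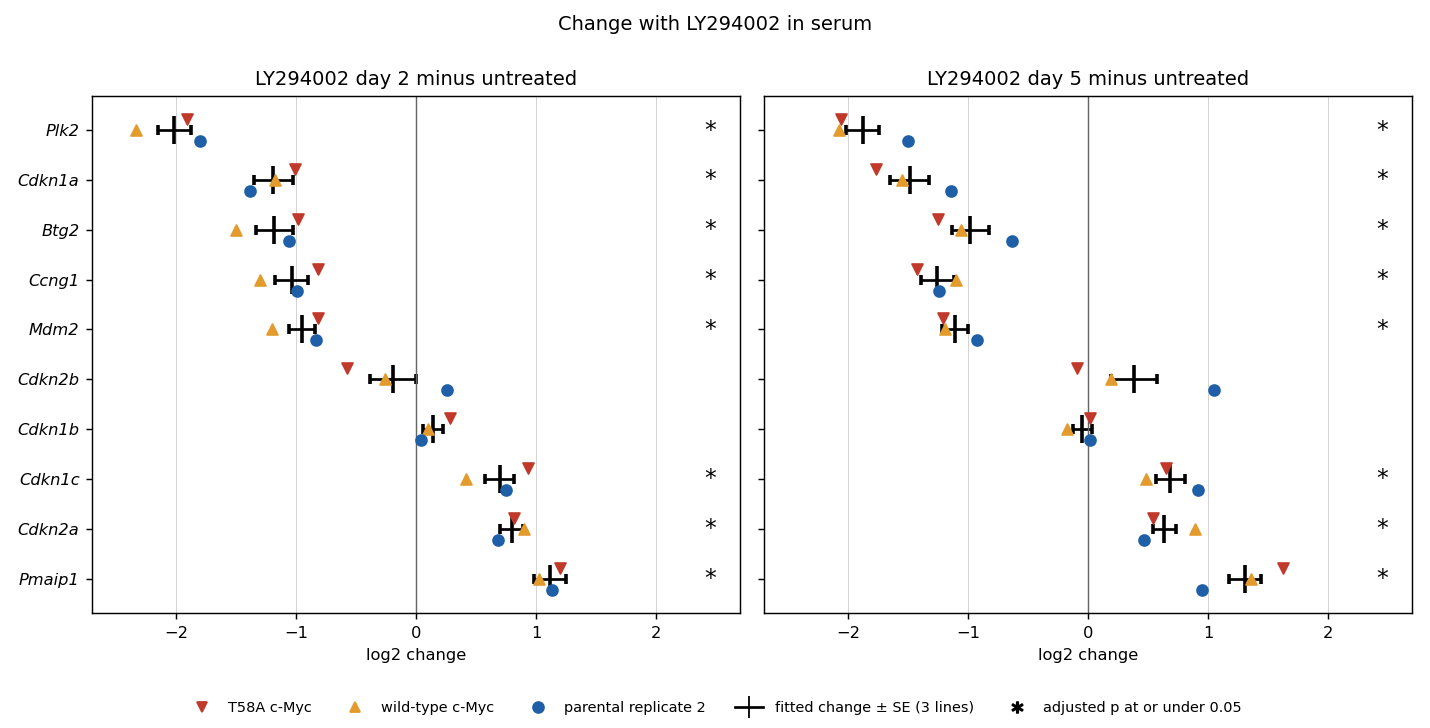
Log2 change with LY294002 from the untreated sample of the same line (horizontal axis) at day 2 (left) and day 5 (right), 1 symbol per line, with the fitted change of 3 lines and its standard error as a bar and an asterisk where the adjusted p was at or under 0.05. Plk2 lies lowest at both days (-2.02 and -1.88), Pmaip1 highest (1.11 and 1.31), and for the 8 genes with an asterisk all 3 lines lie on the same side of 0.

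The 6 treated samples did not overlap the 3 untreated samples of their lines for 6 members, Cdkn1a, Mdm2, Plk2, Btg2, Pmaip1 and Ccng1, beside 29.6% of the 13903 genes compared. Between day 2 and day 5 no member passed limma's test in the same fit, and 2.35% of all genes did. At an unadjusted p under 0.05, 1 member passed, Cdkn2b (0.58 ± 0.19, SE, n = 3 lines; limma adjusted p = 0.140), and 23.6% of all genes. Of the 12 markers of naive and core ESCs 1 rose and 5 fell at day 2, beside 30.5% of all genes passing. At day 5, 1 of these markers rose and 6 fell, beside 44.1%. Their summed level was log2 15.99 to 16.09 in the 6 treated samples and 16.16 to 16.28 in the 3 untreated ones, with no overlap. Among markers of other cell types, fibroblast genes summed to log2 7.90 to 8.52 in the treated samples and 7.66 to 7.92 in the untreated ones, with 3 to 5 of 10 above the filter in each group, and neural genes to 8.45 to 8.97 in the treated samples and 9.07 to 9.44 in the untreated ones. Primitive endoderm genes gave 7.31 to 7.54 treated and 7.47 to 7.54 untreated, trophoblast genes 7.53 to 7.78 treated and 7.58 to 7.71 untreated, and 2-cell-like genes 5.28 to 5.62 treated and 5.42 to 5.66 untreated. The part of all these markers in the changes of the 10 genes was not tested. In the comparison of the days without parental replicate 2, Cdkn1a passed, with a further change of -0.57 and an adjusted p of 0.0448, beside 6.59% of all genes.

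**Figure D3:**
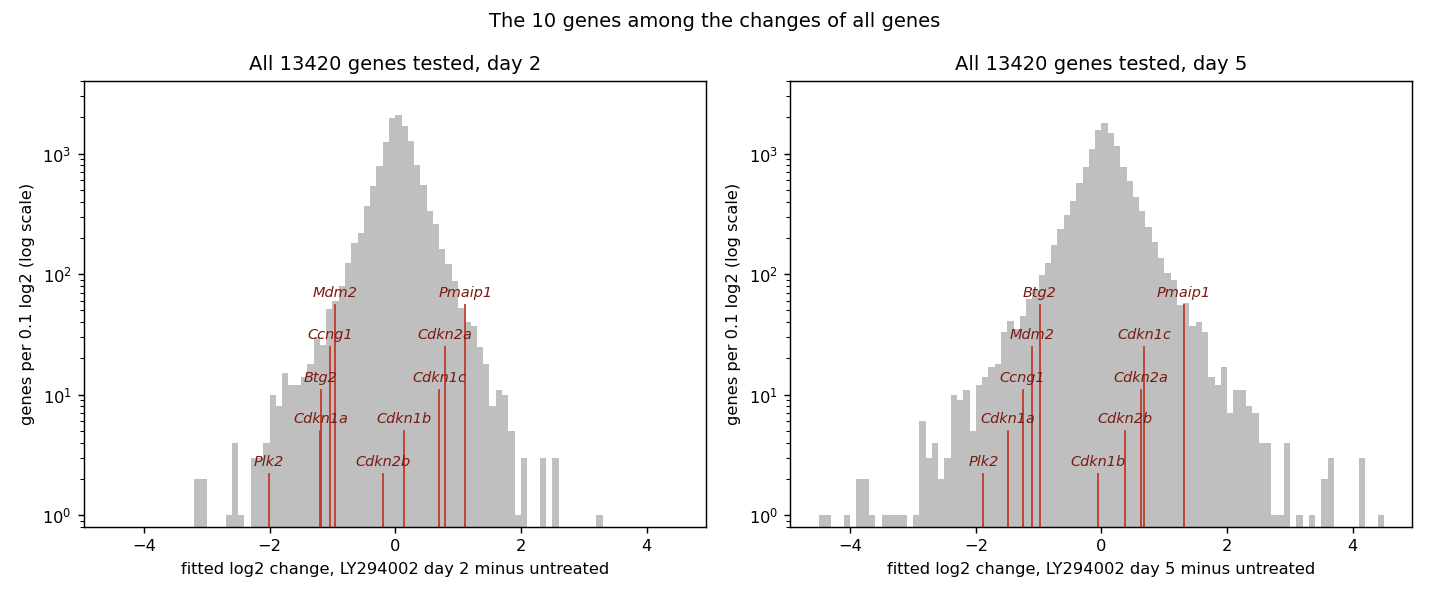
Number of genes (vertical axis, log scale) by fitted log2 change with LY294002 (horizontal axis, bins of 0.1) at day 2 and day 5, over all 13420 genes tested, with a red line at each of the 10 genes; the height of a red line has no meaning. Plk2 lies in the far lower tail, while Cdkn1b lies near the centre, at 0.14 and -0.05.

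Day 5 was also tested with both parental pairs and both lines labelled c-Myc, in 8 samples blocked by pair, which leaves 2 residual degrees of freedom. In the c-Myc lines 1 member rose and 3 fell, beside 1.09% and 1.53% of all genes, 2.62% together: Pmaip1 rose by 1.49 ± 0.15, and Cdkn1a (-1.66 ± 0.15), Plk2 (-2.07 ± 0.25) and Btg2 (-1.16 ± 0.12) fell (SE, n = 2 lines; limma adjusted p of 0.0392, 0.0392, 0.042 and 0.0399). Mdm2 gave -1.20 and Ccng1 -1.26, with limma adjusted p of 0.0535 and 0.0573. The count was 8 without either parental pair, beside 41.5% of all genes in each case, and 0 without either c-Myc line, where no gene passed. With the mean of all probe sets Plk2 did not pass (-1.10, limma adjusted p = 0.0826).

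In the 2 parental pairs no member passed limma's adjusted test and 0.53% of all genes did; at an unadjusted p under 0.05 it was 9 members and 21.8% of all genes. Cdkn1a read 7.92 with LY294002 and 9.48 without in replicate 1, and 7.92 with it and 9.06 without in replicate 2. Within the pairs it gave -1.36 ± 0.15 (SE, n = 2 pairs, limma adjusted p = 0.0594). Plk2 gave -0.55 in replicate 1 and -1.50 in replicate 2, and Mdm2 -0.27 and -0.93. For Plk2 and Mdm2 the difference was thus smaller in replicate 1, and for Cdkn1a (-1.57 in replicate 1 and -1.15 in replicate 2) and Cdkn1c (1.28 and 0.92) it was larger. Without parental replicate 1 the count was 8 members, beside 35.5% of all genes, and without replicate 2 it was 3, beside 9.06%. In these fits 1 parental pair is left and the spread comes from the c-Myc lines, so it is assumed to vary like them. In replicate 1 the 10 fibroblast markers, 3 of them above the filter, summed to log2 7.88 with LY294002 and 8.77 without. Pdgfrb (5.54 with LY294002 and 7.82 without) and Thy1 (5.53 and 6.57) were lower, and Acta2 (5.82 and 5.22) was higher. The part of these markers in the values was not tested.

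The c-Myc minus parental difference in response passed limma's adjusted test for none of the 10 members and for 0% of all genes; at an unadjusted p under 0.05 it was 5 members and 3.41% of all genes. The largest was Plk2, -1.04 ± 0.35 (SE), with a limma adjusted p of 0.996. Without parental replicate 2 it passed for Plk2 (-1.52), Mdm2 (-0.93) and Pmaip1 (0.89), with adjusted p of 0.0225, 0.0306 and 0.0463, beside 10.1% of all genes. This sets the c-Myc lines against replicate 1 alone, with the spread taken from the c-Myc lines. No difference in the response of the lines labelled c-Myc was thus shown for these genes over both parental pairs.

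In 2i medium Cdkn1c was lower with LY294002, where each serum line was higher, and Cdkn1a and Plk2 were lower in both media. Cdkn1c read 6.17 with LY294002 and 7.29 without in 2i, a difference of -1.12, whereas the 4 serum pairs of day 5 gave 0.48 to 1.28. It was the only member at least 2-fold different in 2i, beside 2.67% of all genes. Cdkn1a read 10.28 with LY294002 and 11.20 without (-0.92), Plk2 6.65 and 7.53 (-0.88), and Ccng1 9.24 and 9.70 (-0.46). Pmaip1 read 8.17 and 8.35 (-0.18), against differences of 0.60 to 1.62 in the serum pairs. The 2i pair is 1 sample on each side and was not tested. The untreated arrays of 2i and of parental replicate 1, which share their array group, read 11.20 and 9.48 for Cdkn1a, 8.35 and 9.33 for Pmaip1, and 6.00 and 4.48 for Cdkn2a. Opposite signs in 2i and in all 4 serum pairs were seen for Cdkn1c and Pmaip1, 2 of the 10 members, beside 14.7% of all genes. In 2i the 10 fibroblast markers, 3 of them above the filter, summed to log2 8.56 with LY294002 and 9.59 without. Pdgfrb was lower (7.54 with LY294002 and 9.17 without), and Thy1 (5.63 and 5.64) and Acta2 (5.77 and 5.70) differed little. The 3 markers of 2-cell-like cells summed to 5.20 with LY294002 and 7.31 without. The part of these markers in the values was not tested.

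With Dox in plain Max-null ESCs, Plk2, Btg2, Cdkn2b and Cdkn1c were higher and Cdkn1b lower by at least 2-fold at both days, while in the p110 alpha line only Cdkn1c differed that much, and it was lower. At day 4, 4 members were higher and 1 lower, beside 5.19% and 8.71% of all genes, 13.9% together. Day 6 gave 4 and 1, beside 8.91% and 15.6%, 24.5% together. In the p110 alpha line it was 1 member of 10, lower, beside 2% of all genes. The sign of the Dox difference was opposite in the 2 lines for 6 members, beside 48% of all genes. These are single arrays, so each of these differences has no replicate check.

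By the deposited levels Cdkn1b had the largest difference of the 10 at day 6. It read 9.20, 7.39 and 6.10 at days 0, 4 and 6 in Max-null ESCs, against 9.19 with Dox and 8.85 without in the p110 alpha line. Under the alternatives its day 6 difference was -3.00 to -2.12 and that of Plk2 1.90 to 3.11, so the ranking depends on the processing. The second Cdkn1b probe set gave 7.06, 5.63 and 5.93 in Max-null ESCs. Both probe sets were thus below their untreated level, with the lowest sample at day 6 in one and at day 4 in the other. Cdkn1c read 6.69 with Dox and 8.56 without in the p110 alpha line. In Max-null ESCs it read 7.62, 9.50 and 9.05 at days 0, 4 and 6, an opposite direction.

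Plk2 read 9.52 with Dox and 9.93 without in the p110 alpha line, and 7.71, 10.26 and 10.50 at days 0, 4 and 6 in Max-null ESCs. Btg2 had 9.56 with Dox and 9.44 without in the p110 alpha line, and 7.88, 10.06 and 10.22 at days 0, 4 and 6 in Max-null ESCs. For both genes the untreated Max-null sample was the lowest of the 5, and both its Dox samples were the highest. Cdkn2b had 6.25 with Dox and 6.60 without in the p110 alpha line, and 5.52, 7.23 and 7.50 at days 0, 4 and 6 in Max-null ESCs.

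Cdkn1a differed little: 9.16 with Dox and 9.10 without in the p110 alpha line, and 8.98, 9.23 and 9.45 at days 0, 4 and 6 in Max-null ESCs. Cdkn2a was higher with Dox in both lines, by 0.74 with p110 alpha and by 0.38 and 1.00 at days 4 and 6 in Max-null ESCs, the last just under 2-fold at 0.996. Mdm2 differed by -0.25 with p110 alpha and by 0.51 and 0.14 without, and Ccng1 by -0.10 with p110 alpha and by 0.99 and 0.39 without. Pmaip1 was lower by 0.82 in the p110 alpha line and by 0.14 and 0.11 in Max-null ESCs. Relative to all genes, whose median difference was -0.09 at both days and 0.07 with p110 alpha, Cdkn2a and Pmaip1 in the p110 alpha line, Ccng1 at day 4 and Cdkn2a at day 6 lay farthest out, though under 2-fold. With quantile normalization Pmaip1 turned to 0.18 at day 6, and Cdkn1a turned to -0.04 in the p110 alpha line, where centring gave -0.06.

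**Figure D4:**
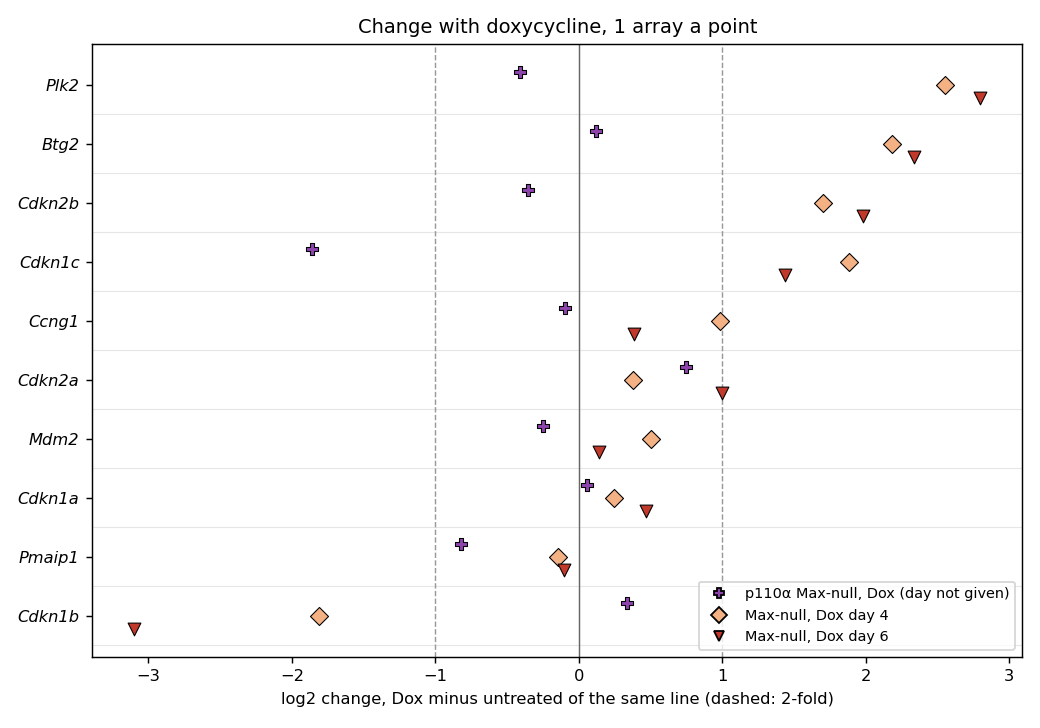
Log2 difference between the Dox sample and the untreated sample of the same line (horizontal axis) for each of the 10 genes, with 1 symbol per Dox array, the p110 alpha line above the Max-null days, and dashed lines at 2-fold. Plk2, Btg2, Cdkn2b and Cdkn1c lie right of 2-fold and Cdkn1b left of it at both days in Max-null ESCs, while in the p110 alpha line Cdkn1c alone lies outside, at -1.86.

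Both lines were also fitted together (5 samples, line as a block, residual degrees of freedom 2), and no member and 0% of all genes passed limma's test for a common Dox change. At an unadjusted p under 0.05 it was 2 members, Cdkn2a (0.71 ± 0.29, SE) and Btg2 (1.34 ± 0.49, SE), and 5.18% of all genes. Without the p110 alpha line the Max-null samples alone passed for 5 members, Plk2 (2.67), Btg2 (2.26), Cdkn2b (1.84), Cdkn1c (1.66) and Cdkn1b (-2.45), with limma adjusted p of 0.00083 to 0.0143, beside 11% of all genes. That fit has 1 untreated sample, whose spread is assumed to equal that between the 2 Dox days.

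The difference between the lines in their Dox change was tested in the same 5 samples with 1 residual degree of freedom, which comes from Dox day 4 against day 6 alone. It passed for Cdkn1c (-3.52 ± 0.53, SE; limma adjusted p = 0.0104) and Plk2 (-3.08 ± 0.51, SE; limma adjusted p = 0.0173), both lower with p110 alpha, beside 1.9% of all genes in either direction and 0.983% lower. Cdkn1b gave 2.79 ± 0.73, Cdkn2b -2.20 ± 0.51 and Btg2 -2.14 ± 0.51, with limma adjusted p of 0.0823, 0.0621 and 0.0627. With the arrays centred on their medians neither passed, with -3.75 for Cdkn1c and -3.31 for Plk2 and adjusted p of 0.0577 and 0.0604. With the trended robust prior Btg2 passed as well (limma adjusted p = 0.0295). With the mean of all probe sets Plk2 no longer passed (-1.86, adjusted p = 0.0971); the other probe set is the one near background. The median difference of all genes was 0.17, and both genes were lower under each scaling tried.

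The untreated Max-null sample weighs on all of these differences. It lay outside the range of the other 4 untreated samples in serum of its array group for 7 of the 10 members, beside 58.2% of all genes. It was below them for Cdkn1a, Cdkn2b, Mdm2, Plk2, Btg2 and Ccng1, and above them for Pmaip1. Of these 7 members, Mdm2, Plk2, Btg2 and Ccng1 lay within the range of the 6 samples with LY294002, and Cdkn1a, Cdkn2b and Pmaip1 lay outside it. The share of all genes in that position was not counted, so no likeness to LY294002 is read from it. Plk2 read 7.71 in the untreated Max-null sample, against 7.45 to 8.30 with LY294002 and 9.73 to 9.93 in the other untreated samples. The Dox samples compared with those other 4 untreated samples were outside their range for 9 members, beside 56.4% of all genes. They were above for Cdkn1a, Cdkn1c, Cdkn2a, Cdkn2b, Plk2 and Btg2, and below for Cdkn1b, Mdm2 and Ccng1. The direction of Plk2, Btg2, Cdkn2b, Cdkn1c and Cdkn1b with Dox was thus the same against these other samples, and that of Mdm2 and Ccng1 was the opposite.

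The 12 markers of naive and core ESCs summed to log2 16.38 with Dox and 16.35 without in the p110 alpha line, and to 16.38, 16.37 and 16.02 at days 0, 4 and 6 in Max-null ESCs. Markers of other cell states differed with Dox as well. The 3 measured markers of 2-cell-like cells, Tcstv3, Zfp352 and Usp17la, summed on the linear scale to log2 10.11 with Dox and 8.63 without in the p110 alpha line, and to 9.02, 14.45 and 14.69 at days 0, 4 and 6 in Max-null ESCs. All 3 lay above the level filter in each Dox sample. The fibroblast markers summed to 8.40 with Dox and 8.10 without in the p110 alpha line, and to 8.75, 8.51 and 9.41 in Max-null ESCs, with 6 of 10 above the filter at day 6, led by Acta2 at 8.03. Primitive endoderm markers summed to 7.75 with Dox and 7.95 without in the p110 alpha line, and to 7.25, 8.08 and 8.91 in Max-null ESCs, with 5 of 7 above the filter at days 4 and 6 and Foxa2 at 7.55 at day 6. Trophoblast markers summed to 7.77 with Dox and 7.74 without in the p110 alpha line and to 7.86, 8.24 and 8.60 in Max-null ESCs, and neural markers lay between 8.53 and 9.14 in these 5 samples. Their part in the changes of the 10 genes was not tested.

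Other genes of the same pathways were read from lists of p53 regulators and targets, further CDK inhibitors and relatives of the members, and cyclins, CDKs, Rb and E2F genes. Of 32 other p53 genes tested, 3 rose and 12 fell at day 2 of LY294002, and 5 rose and 15 fell at day 5. Among all genes 18.3% rose and 12.3% fell at day 2, and 25.7% rose and 18.5% fell at day 5. The median changes of these p53 genes were -0.26 and -0.32, beside 0.04 and 0.05 over all genes. At day 5 Eda2r, a receptor of the TNF family (-1.59), Sesn2, a stress-induced inhibitor of mTORC1 (-1.42), Mdm4, the partner of Mdm2 (-1.32), and Polk, a DNA polymerase gene (-1.04), fell, with limma adjusted p of 0.000212 to 0.000348. Sfn, the gene of 14-3-3 sigma, rose by 1.80 and Sesn1, a FOXO and p53 target, by 0.85 (limma adjusted p = 0.000486 and 0.000599).

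Of the 10 other CDK inhibitors and relatives tested, 1 rose and 3 fell at day 2, and 3 rose and 3 fell at day 5. Among all genes 18.3% rose and 12.3% fell at day 2, and 25.7% rose and 18.5% fell at day 5. Btg1 and Tob1, antiproliferative relatives of Btg2, fell by 0.91 and 1.11 at day 5, and Cdkn2c, the gene of p18, fell by 0.36 (limma adjusted p of 0.000155, 0.00118 and 0.00857). Of 25 cyclin, CDK, Rb and E2F genes, 11 rose and 1 fell at day 2, and 13 rose and 3 fell at day 5, beside the same shares of all genes. Myc rose by 2.27, the cyclin gene Ccne1 by 0.56 and E2f5 by 0.77 at day 5, and Rbl2, the gene of the pocket protein p130, fell by 1.23 (limma adjusted p of 0.000158, 0.00086, 0.00121 and 0.000292). Myc is also the gene overexpressed per the labels in 2 of the 3 lines.

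With Dox, 2 of the 32 other p53 genes were at least 2-fold higher and 2 lower at day 4 in Max-null ESCs, and 2 higher and 5 lower at day 6. In the p110 alpha line it was 1 higher and none lower, beside 2% of all genes. Together these are 4 and 7 of 32 at days 4 and 6, shares near the 13.9% and 24.5% of all genes. Among them the p53 targets Trp53inp1 (1.25) and Eda2r (1.21) were higher at day 4, and Bcl6 (-1.78) and Tigar (-1.15) were lower. At day 6 Ddb2 (1.12) and Sesn1 (1.11) were higher, and Zmat3, a p53 target, was the most lowered of the 5, by 1.80. Of the 25 cyclin, CDK, Rb and E2F genes, 2 were higher and 4 lower at day 4, and 2 and 4 at day 6. Among the cyclins Ccnd2, the gene of cyclin D2, was higher by 3.22 and 3.55 at days 4 and 6, and Ccnd1, that of cyclin D1, was lower by 1.20 and 1.88. The difference between the lines passed for Ccnd2 (-4.05, limma adjusted p = 0.00477) and for Bcl6, a repressor gene (2.61, limma adjusted p = 0.0352), beside 1.9% of all genes.

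The patterns of the 10 genes were compared by Pearson's r of log2 levels centred on the mean of each line, over the 18 samples, as a description, since samples of a line share its untreated reference. Mdm2 and Ccng1 were most alike, with r = 0.97, followed by Plk2 and Btg2 with 0.96. Cdkn1a had 0.87 with Mdm2 and -0.86 with Pmaip1, and Cdkn1b had -0.80 with Cdkn2b. With Dox in plain Max-null ESCs Cdkn1b differed by -1.81 and -3.10 at days 4 and 6, against -0.17 to 0.34 in all other pairs. The r values of Cdkn1b, here and below, thus rest mostly on the plain Max-null samples. For Cdkn1c and Cdkn2a the highest r with another member was 0.57 and 0.55, in both cases Pmaip1.

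Among the 4931 genes searched, the most similar to Cdkn1a was Ak7 (0.96), to Cdkn1b Zcchc2 (0.99), to Cdkn1c A930024E05Rik (0.92), to Cdkn2a Zfp943 (0.92) and to Cdkn2b Trabd2b (0.93). Ccng1 had Ddias (0.98) and the p53 target Trp53inp1 (0.98, second), and Mdm2 had Ccng1 itself, before Psrc1 and Ddias (both 0.96). Plk2 had Bod1l (0.98) and Btg2 had Tut7 (0.98), while Pmaip1 had Slc7a7 (0.96). Each of these is the highest r among the 4931 genes searched, and all were 0.92 or more. How often other genes have a match this close was not counted, so this is no trait of the members.

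**Figure D5:**
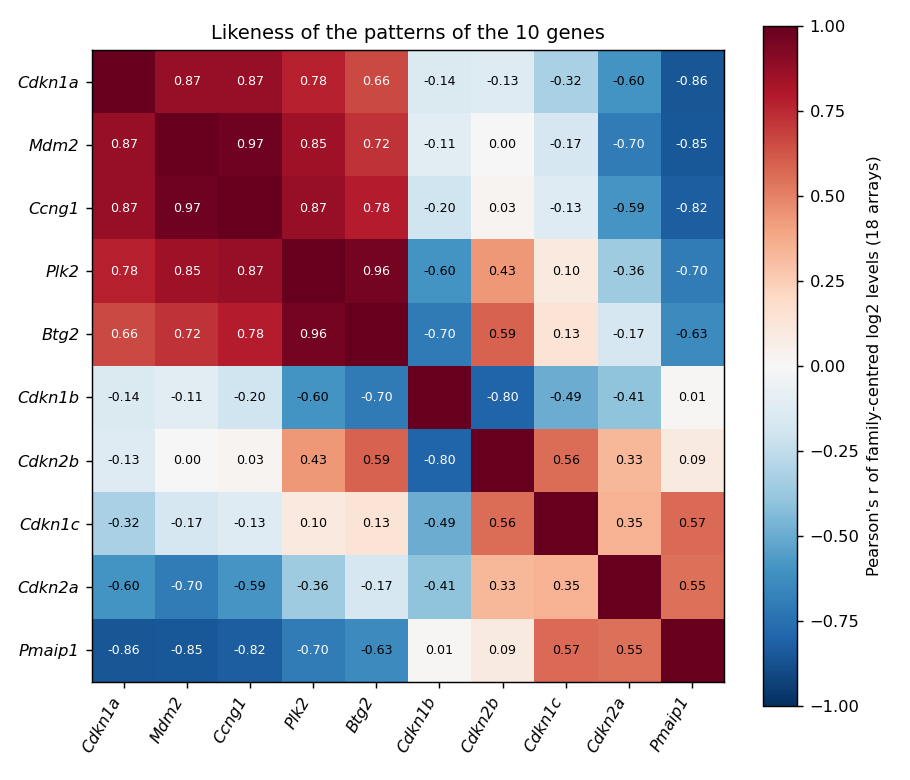
Pearson's r between the patterns of the 10 genes over 18 arrays (colour and number, rows and columns are genes), from log2 levels centred on the mean of each family (an untreated sample and the treated samples paired with it). Cdkn1a, Mdm2, Ccng1, Plk2 and Btg2 have r of 0.66 or more with each other, and Pmaip1 has negative r with all 5.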

How the data were processed

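The 18 samples were read on 1 Affymetrix array each, from TRIzol total RNA labelled as biotinylated cRNA, per the labels' protocols. The deposited table holds log2 levels of 45101 probe sets, which the authors made with RMA and the affy package, per the submitters' processing notes; their versions are not given in the sources used here. RMA corrects background, quantile normalizes the arrays run together and summarises the probes of a set, so levels of arrays run apart are not comparable. That the 4 arrays of parental replicate 1 and 2i were run apart is inferred from medians and written digits. All 18 columns were matched to samples by their names.

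Of the probe sets, 34945 name 1 gene, 932 several and 9160 none in the platform annotation, 64 are controls, and 34741 of those naming 1 gene were matched to RefSeq genes (GRCm38.p6). Of 18193 genes, 9010 had several probe sets, and the highest mean was used. A gene entered a test if 2 or more samples of the fit (1 of an untested pair) lay above log2 4.64, the 40th percentile. Tests used limma 3.58.1 (lmFit, eBayes, R 4.3.3), 2-sided, with Benjamini-Hochberg adjustment over all genes of a comparison at 0.05. Some of the comparisons, not all, were also run on simulated data with 1 spread for all genes, which does not measure their error rates in these samples. Day 2 and day 5 of LY294002 were fitted in 9 samples, day 5 over both parental pairs in 8, and Dox in 5. Pairs with 1 sample a side were not tested and were counted at 2-fold. Each treated sample was paired with the untreated sample whose description names it; deviations of samples of a line from the group means correlated over genes with r of 0.12 to 0.61. Separate cultures are not stated, so p-values measure the spread between these samples, which may be technical.

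The members, the gene lists and the comparisons were chosen with earlier results of these data known. Of the other lists (36 p53 genes, 11 CDK inhibitors and relatives, 26 cyclin, CDK, Rb and E2F genes, and markers of ESCs, fibroblasts, primitive endoderm, trophoblast, 2-cell-like and neural cells), the rule names up to 4 passing genes each way with the smallest p, or up to 3 at 2-fold in an untested pair; the text gives some of these. Likeness was searched among genes above the filter with an SD of at least 0.25. Alternatives changed the level filter, scaling, probe sets, eBayes prior, the replicate block and the samples.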

Additional observations from a re-analysis of the deposited data

Results flagged for a closer look

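The Dox difference between the Max-null lines passed limma's test in 5 samples for Cdkn1c (-3.52, p110 alpha minus plain Max-null) and Plk2 (-3.08), beside 1.9% of all genes. Its only residual is Dox day 4 against day 6, so the spread between arrays of the p110 alpha line and between untreated arrays is not measured. With the arrays centred neither gene passed (limma adjusted p = 0.0577 and 0.0604). Apart from that test, 6 of the 10 genes had opposite signs in the lines, with 1 Dox array in the p110 alpha line and both Dox days in plain Max-null ESCs, beside 48% of all genes. That count is near the share of all genes. In the p110 alpha line Cdkn1b was higher with Dox by 0.34, whereas Cdkn1c (-1.86), Plk2 (-0.41), Cdkn2b (-0.35), Mdm2 (-0.25) and Ccng1 (-0.10) were lower; the plain Max-null days had the other sign in each case. For Cdkn1b, Cdkn2b, Mdm2 and Ccng1 the difference did not pass the test, and against the other 4 untreated samples of the array group both Max-null Dox arrays were lower, not higher, for Mdm2 and Ccng1.

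With LY294002 at day 5, 2 of the 10 genes had opposite signs in 2i and in all 4 serum pairs, beside 14.7% of all genes. This count, too, is near the share of all genes. In 2i Cdkn1c was lower by 1.12 (-1.12) and Pmaip1 by 0.18 (-0.18), and both were higher in each serum pair. The difference between the media was not tested, since 2i has 1 pair.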

How the results depend on the processing

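No member changed direction past the threshold under any alternative run, and of the values recomputed for single members and comparisons 895 kept their call, 38 newly passed, 21 no longer passed and 4 crossed 2-fold in an untested pair (Ccng1 at Dox day 4 and Cdkn2a at Dox day 6). For LY294002 at days 2 and 5 in 9 samples, leaving out each line gave 8 or 9 members at day 2 and 8 at day 5, as against 8, and without the replicate block 6 passed at each day, with Cdkn1c (adjusted p = 0.0878 and 0.0669) and Cdkn2a (0.374 and 0.440) lost. Between the days the count was 0 to 1 on leaving out a line.

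For day 5 in the parental pairs, with 0 members, centring the arrays, quantile normalization and the mean of all probe sets each gave 1, Cdkn1a, and leaving out a pair gave 0 to 8. In the c-Myc lines, with 4, no replicate block gave 2, the 60th percentile filter added Mdm2, quantile normalization and the trended robust prior each added Mdm2 and Ccng1, the mean of all probe sets lost Plk2, and leaving out a pair gave 0 to 8. For their difference leaving out a pair gave 0 to 3. For Dox in both lines, leaving out a Dox day or the p110 alpha line gave 0 to 5. For the difference between the lines, with 2, centring gave 0 and the mean of all probe sets 1, with Plk2 at -1.86, and the trended robust prior added Btg2. The cause of these shifts was not tested. The share of all genes is not given beside each of these counts, so no shift is read as particular to the members. Counts over all genes ranged from 1010 to 4503 at day 2, from 2881 to 6137 at day 5, from 0 to 877 between the days, from 0 to 4711 in the parental pairs, from 0 to 5527 in the c-Myc lines, from 0 to 1340 for their difference, from 0 to 1455 with Dox and from 54 to 336 for the difference between the Max-null lines.

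The Dox fits have 1 or 2 residual degrees of freedom, so a change that misses the threshold is not shown to be absent. Genes with levels near the filter, such as Cdkn2b and Cdkn2a on the arrays with lower medians, are read close to background.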
